A study of Mus musculus with 9 samples.

Results

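The effect of a 60% fat diet that was present both with and without minocycline was examined in the paraventricular nucleus of the hypothalamus (PVN). The 6 mice on the fat diet, 3 given the diet alone (HFD) and 3 given the diet and minocycline (HFD+Mino), were compared with 3 mice on chow (Control), and the HFD and HFD+Mino means had equal weight. All 9 samples of the series entered the comparison. Of 17344 genes tested, 110 (0.634%) were shifted the same way in both fat-diet groups, 9 of them up and 101 down. A gene counted as shifted the same way when the average of HFD and HFD+Mino differed from Control at a false discovery rate (FDR) under 0.05 and by at least 1.5-fold, and when each fat-diet group by itself also lay at least 1.5-fold from Control on the same side. The question was which changes that accompany the fat diet remain in mice that also receive the drug.

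All mice were wild type males, labelled C57BL/6 and named C57BL/6J in the study's methods, and their labelled age was 35 days, which is shorter than the diet and is read here as the age when it began. Control mice ate chow with 16% of calories from fat, and HFD and HFD+Mino mice ate a diet with 60% of calories from fat, each for 12 weeks. HFD+Mino mice received minocycline at 40 mg/kg/day during the last 6 weeks. Each sample is a tissue punch of 1 mouse. No group received minocycline with chow, so an effect of the drug by itself on chow-fed mice cannot be told apart from an effect of the drug on the fat diet. RNA was measured by bulk RNA sequencing from libraries made with a kit for very small RNA inputs, and values are given as CPM, a gene's count relative to its library's total after scaling by edgeR's TMM method.

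The PVN holds the neurons that make vasopressin, oxytocin, corticotropin-releasing hormone and thyrotropin-releasing hormone, and it links feeding signals with pituitary and autonomic output. Microglia are the resident immune cells of the brain, and minocycline is a tetracycline antibiotic that also dampens their activation. Voltage-gated ion channels set how fast such neurons fire, and cyclic AMP, calcium-binding proteins and protein phosphatases pass receptor signals on inside them. In a tissue punch, fewer cells of a type and less RNA per cell cannot be told apart.

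The libraries did not all carry the markers of the labelled nucleus, and this bears on the results. Control replicate 1 nearly lacked vasopressin and oxytocin RNA. Avp, which encodes vasopressin, was at 0.149, 157 and 990.3 CPM in Control replicates 1 to 3, 589.5, 1487 and 1984 in HFD and 28049, 22180.00 and 1218 in HFD+Mino. Oxt, which encodes oxytocin, was at 0.770, 427 and 1192 CPM in Control replicates 1 to 3, 1402, 1364 and 1409 in HFD and 8907, 8696 and 1358 in HFD+Mino, and Trh, which encodes thyrotropin-releasing hormone, was at 5.49, 324 and 314 CPM in Control replicates 1 to 3, 455, 293 and 259.9 in HFD and 632, 852 and 499 in HFD+Mino. The same Control replicate had the most myelin RNA. The 16 genes of mature oligodendrocytes, the cells that make myelin, summed to between 4558 and 35893 CPM in Control, 3188 and 8012 in HFD and 2944 and 7106 in HFD+Mino. Mbp, a main myelin protein, was at 18005, 3329 and 2056 CPM in Control replicates 1 to 3, 1538, 4361 and 2808 in HFD and 1478, 1183 and 3618 in HFD+Mino. Hcrt, the gene of the orexin neuropeptide of the lateral hypothalamus, was highest in Control replicate 2. It was at 73.4, 812 and 1.59 CPM in Control replicates 1 to 3, 0.502, 0.174 and 0.498 in HFD and 3.01, 7.02 and 0.164 in HFD+Mino. Avp was highest in HFD+Mino replicates 1 and 2. Genes described below are therefore given with and without Control replicate 1, and the part of the punch position in these results was not tested. Total counts per sample ran from 17728590 to 42326213. The ribosomal precursor genes Rn45s and Rn18s together took between 0.027% and 0.046% of the counts in Control, 0.359% and 0.441% in HFD and 0.047% and 0.118% in HFD+Mino. The microglial marker Aif1 was at 14.9, 8.84 and 4.62 CPM in Control replicates 1 to 3, 7.08, 7.19 and 5.97 in HFD and 23.7, 19.7 and 8.77 in HFD+Mino, and the male-specific gene Ddx3y was at 39.9 CPM or more in every sample.

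**Figure D1:**
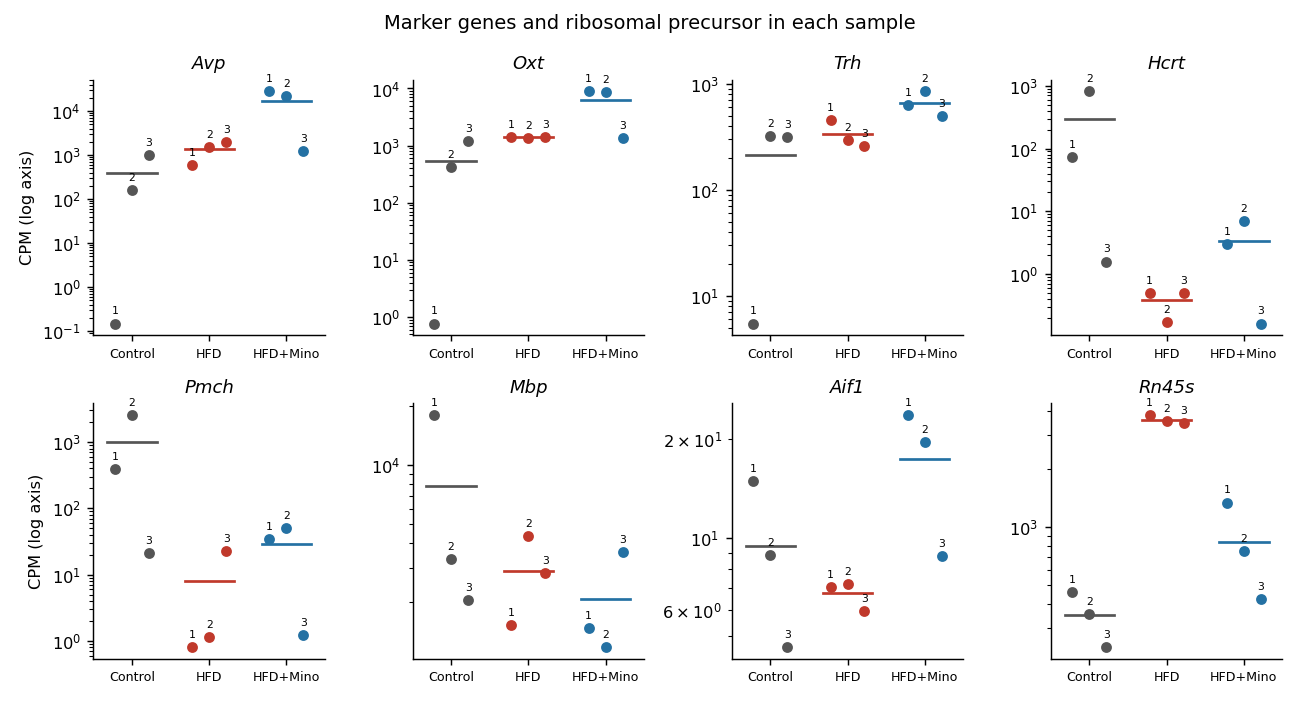
CPM on a log axis of 8 marker genes in each of the 9 samples, with the replicate number beside each point and a line at the group mean. Control replicate 1 lies lowest for Avp (0.149 CPM), Oxt (0.770 CPM) and Trh (5.49 CPM) and highest for Mbp (18005 CPM), and Control replicate 2 lies highest for Hcrt (812.5 CPM) and Pmch.

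Promoters are printed for the genes on which the results turn: Cables2 and Cabp1, which stayed down with any single sample left out, and Zic1 and Unc5c, which were the rises whose HFD and HFD+Mino levels did not pass the test of a difference and reached 5 CPM. The sequences are from RefSeq on GRCm38.p6, run 5′ to 3′ across a transcription start, and show in capitals each GC box, the letters GGGCGG on either strand. Cabp1 has a second start in RefSeq, which is not shown.
Cables2, chr2:180273416-180273715, minus strand: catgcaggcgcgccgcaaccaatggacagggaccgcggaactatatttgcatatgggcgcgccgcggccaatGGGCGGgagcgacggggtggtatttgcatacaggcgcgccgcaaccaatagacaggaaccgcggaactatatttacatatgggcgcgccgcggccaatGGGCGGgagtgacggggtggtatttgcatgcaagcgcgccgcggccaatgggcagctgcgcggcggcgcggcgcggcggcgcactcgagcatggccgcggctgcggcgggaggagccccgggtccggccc
Cabp1, chr5:115194332-115194631, minus strand: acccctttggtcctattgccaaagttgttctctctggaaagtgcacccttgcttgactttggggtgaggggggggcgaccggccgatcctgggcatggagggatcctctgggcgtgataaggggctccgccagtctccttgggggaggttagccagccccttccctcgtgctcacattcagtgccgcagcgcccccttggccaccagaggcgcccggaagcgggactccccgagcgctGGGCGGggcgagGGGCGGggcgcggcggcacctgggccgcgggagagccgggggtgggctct
Zic1, chr9:91365719-91366018, minus strand: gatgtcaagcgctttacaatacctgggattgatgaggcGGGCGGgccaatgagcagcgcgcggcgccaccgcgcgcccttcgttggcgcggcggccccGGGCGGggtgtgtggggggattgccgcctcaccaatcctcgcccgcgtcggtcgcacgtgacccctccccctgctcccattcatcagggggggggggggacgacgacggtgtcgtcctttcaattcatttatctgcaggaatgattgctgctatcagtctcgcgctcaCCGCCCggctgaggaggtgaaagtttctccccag
Unc5c, chr3:141465314-141465613, plus strand: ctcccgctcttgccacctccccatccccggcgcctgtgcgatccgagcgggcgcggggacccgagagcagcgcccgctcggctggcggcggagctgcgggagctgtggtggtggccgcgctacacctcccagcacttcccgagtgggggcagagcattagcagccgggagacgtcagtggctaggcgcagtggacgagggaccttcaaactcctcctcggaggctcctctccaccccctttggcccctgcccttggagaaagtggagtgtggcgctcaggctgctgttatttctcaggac
RefSeq promoters were matched for 80 of the 101 genes that fell and for 4 of the 9 that rose. Of the 99 promoters of the falling genes, 83 (83.8%) held the GC box GGGCGG, against 57.7% of the 16544 promoters of all tested genes. Their median GC content was 69.3%, against 59.7%. The cyclic AMP response element TGACGTCA was found in 1 of the 99 (1.01%) and in 2.74% of all, the TATA box TATAAA in 4 (4.04%) and in 8.05%, and the E-box CACGTG in 9 (9.09%) and in 9.32%. Each motif was searched on both strands, and a match describes letters and not a bound site. Over the whole transcript the falling genes had a median of 50.55% G and C, close to the 49.9% of all tested genes. Only their GC-richest stretch stood apart. That stretch of 100 nt held a median of 87% G and C in 100 falling genes with a value, against 72% in all tested genes. The median exon length was 4072.5 nt, against 4335 nt.

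The average fat-diet effect was mostly a fall. Of the 17344 genes, 200 (1.15%) were called in the average of HFD and HFD+Mino against Control, 12 of them higher (0.0692%) and 188 lower (1.08%), by the quasi-likelihood test of edgeR with p-values adjusted after Benjamini and Hochberg. Of these, 9 of the higher genes (0.0519% of those tested) and 101 of the lower genes (0.582%) moved at least 1.5-fold in both groups. The median log2 fold change of all tested genes in the average was 0.02. At an unadjusted p under 0.05, 2399 genes (13.8%) differed in the average. All 6 fat-diet samples lay beyond all 3 Control samples in 6 of the 9 rises and 52 of the 101 falls, where the same held for 708 of all tested genes (4.08%), 321 above (1.85%) and 387 below (2.23%).

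DESeq2 gave a more even split, with 329 genes higher and 535 lower in the average and 212 and 303 shifted the same way. Deviations from the group means of same-numbered Control and HFD+Mino samples correlated weakly, at 0.121, 0.144 and 0.264. No label names such a pairing, so a block taken from these same counts is no independent support. With that number as a block in these groups the average gave 339 genes higher and 495 lower. Of these, 160 and 284 were shifted the same way, 107 of the 110 genes among them. Without Control replicate 1, 4 genes were higher and 93 lower in the average, and 3 and 47 were shifted the same way, 38 of the 110 among them.

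The shift was larger without the drug in most of these genes. In the 101 falls the median log2 fold change was −2.59 in HFD and −0.84 in HFD+Mino, which is 16.6% and 55.8% of the Control level. In 97 of the 101 the HFD mean lay farther from Control. Of these 101 falls, 98 were also called in HFD against Control by itself, so their selection favours a larger shift in HFD. HFD+Mino differed from HFD in 84 of the 110 genes at an FDR under 0.05 (edgeR), where 4761 of all tested genes did (27.5%). This share was 76.4% of the 110 genes, but 34% of the 515 genes that DESeq2 found shifted the same way, 48% of 444 with the replicate block and 40.4% of 627 without HFD+Mino replicate 3. In 82 of the 84, 77 falls and 5 rises, HFD+Mino lay between HFD and Control. In the other two, Riiad1 and Mme, it lay farther from Control than HFD did. The remaining 26 genes, 3 rises and 23 falls, did not pass the test of a difference between HFD and HFD+Mino, which does not show that their levels were alike. Of these 26 genes, 3 stayed shifted the same way without Control replicate 1 (Hcrt, Parpbp and Tada2b, a count chosen after its values were seen) and 0 without Control replicate 2, where 35 and 8 of the 84 did.

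Each group taken alone gave a different number of genes. HFD differed from Control in 445 genes that were higher (2.57%) and 556 that were lower (3.21%), and 98 of the 101 falls and 7 of the 9 rises were among them. HFD+Mino differed from Control in 0 genes (0%) by edgeR at an FDR under 0.05 and in 3697 (21.3%) at an unadjusted p under 0.05. DESeq2 called 1376 genes in that comparison, the replicate block 2688, and the fit without HFD+Mino replicate 3 called 3707. The 2 comparisons share the Control samples. Of the 110 genes, all 9 rises and 72 of the 101 falls had an unadjusted p under 0.05 in HFD+Mino against Control (edgeR).

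**Figure D2:**
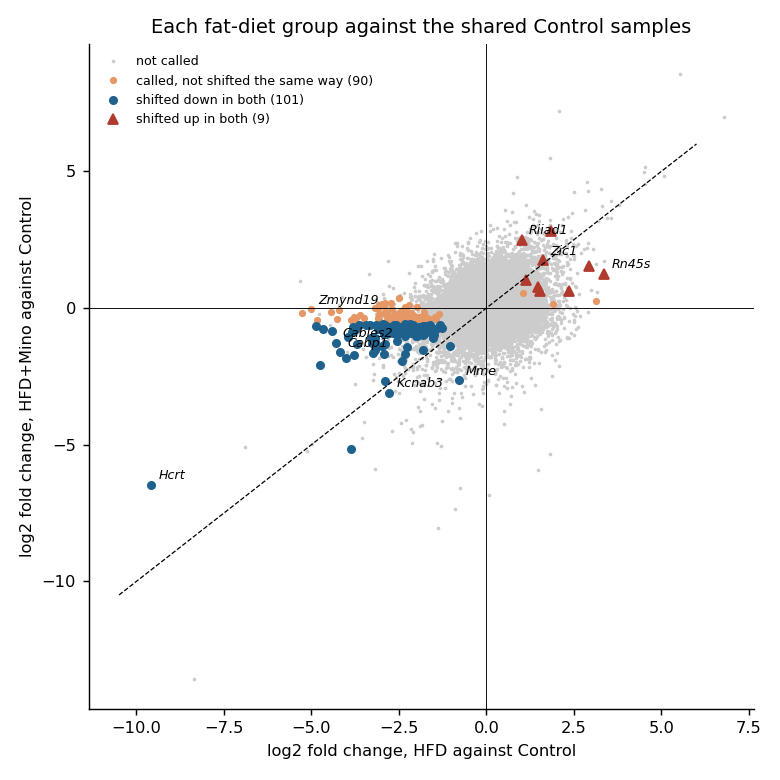
Log2 fold change in HFD against Control on the x axis and in HFD+Mino against Control on the y axis for 17344 genes, with the dashed line where both are equal. The 101 genes shifted down in both lie mostly above the dashed line, at a median of −2.59 in HFD and −0.84 in HFD+Mino, and both axes use the same Control samples.

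Sample by sample, the same split was seen within HFD+Mino. Over the 101 falls the median log2 distance from the Control mean was −2.76, −2.41 and −2.40 in HFD replicates 1 to 3, −1.32 and −1.31 in HFD+Mino replicates 1 and 2, and −0.33 in HFD+Mino replicate 3. Over the 9 rises it was 1.46, 2.00 and 1.51 in HFD and 1.99, 1.19 and 0.53 in HFD+Mino. HFD+Mino replicate 3 was the fat-diet sample nearest to Control in 90 of the 101 falls and 6 of the 9 rises. The same count over all tested genes was not taken, so this nearness is not shown to be particular to these genes. Without HFD+Mino replicate 3, 177 genes were shifted up and 450 down in both groups, and all 110 genes were among them. The same sample had 1218 CPM of Avp where the other two HFD+Mino samples had 28049 and 22180.00 CPM, and the part of this in the ranking was not tested.

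**Figure D3:**
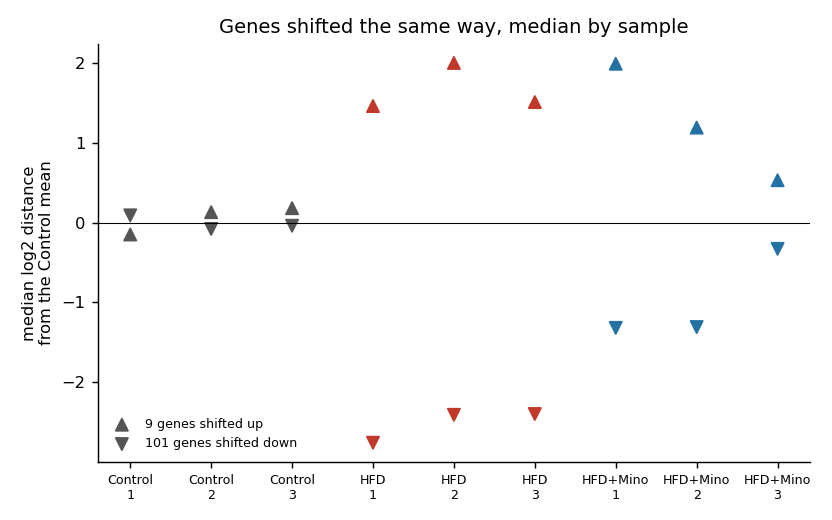
Median log2 distance of each sample from the Control mean, on the y axis, over the 9 genes shifted up (triangles pointing up) and the 101 genes shifted down (triangles pointing down). Over the falls the HFD samples lie farthest from Control, and HFD+Mino replicate 3 lies nearest of the 6 fat-diet samples over both sets, at 0.53 and −0.33.

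The count depended on single samples. With each sample left out in turn, the genes shifted down ranged from 9, when Control replicate 2 was dropped, to 450, when HFD+Mino replicate 3 was, and the genes shifted up from 0 to 177 in the same fits. The 110 genes were found again in a median of 3 of these 9 fits. Cables2, Cabp1, Vstm2l and Snn were found in all 9, and another 11 genes in 8 of 9. No rise was found in all 9 (0 of 9 genes).

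**Figure D4:**
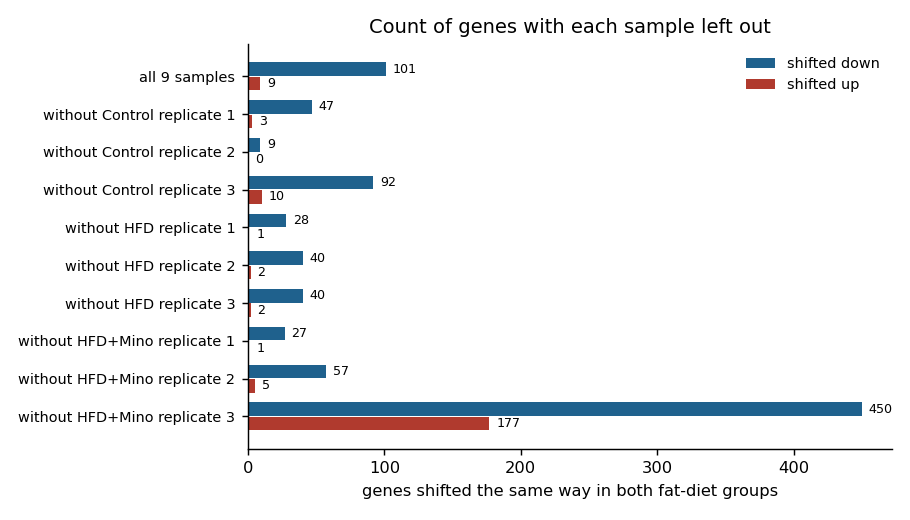
Number of genes shifted the same way in both fat-diet groups, on the x axis, for all 9 samples and with each sample left out. The falls number 101 with all samples, 9 when Control replicate 2 is dropped, and 450 when HFD+Mino replicate 3 is.

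The 101 falls had average log2 fold changes from −8.02 to −0.98 and FDRs from 0.00153 to 0.0498, and the 9 rises from 1.07 to 2.32 and from 0.0129 to 0.045 (edgeR). Of the falls 94 and of the rises 8 had a mean of at least 5 CPM. At the FDR threshold, Nckap1 lay just inside at 0.0498 with an average of −1.32, and Plk3 just outside at 0.0509 with −1.69. At the fold threshold in HFD+Mino, Nipa1 lay just inside at −0.59 and Ppp2ca just outside at −0.58 on the log2 scale, and these 3 border genes, Plk3, Nipa1 and Ppp2ca, were chosen for their place at the thresholds.

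Among the falls, the gene with the lowest FDR was Cables2 (Entrez gene 252966), which encodes an adaptor that binds the kinases Cdk5 and Abl and lies on chromosome 2, bases 180258539 to 180273490 (GRCm38). Its level was 86.7, 51.4 and 56.3 CPM in Control replicates 1 to 3, 3.66, 2.55 and 3.58 in HFD and 30.2, 16.05 and 34.2 in HFD+Mino. Every fat-diet sample lay below every Control sample, and the HFD samples lay below the HFD+Mino samples. Its average log2 fold change was −2.79 ± 0.27 (SE, FDR 0.00153, edgeR), made up of −4.31 in HFD and −1.27 in HFD+Mino, and it was −2.53 (FDR 0.00497, edgeR) without Control replicate 1. HFD+Mino lay above HFD by 3.04 (95% interval 2.28 to 3.80).

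Cabp1 (Entrez gene 29867, chromosome 5, bases 115168691 to 115194381) encodes a neuronal calcium-binding protein that regulates calcium channels. It was at 22.5, 9.12 and 8.65 CPM in Control replicates 1 to 3, 0.552, 0.754 and 0.871 in HFD and 3.90, 4.87 and 4.40 in HFD+Mino. The 3 groups did not overlap, with HFD+Mino in the middle. On average Cabp1 was −2.90 ± 0.34 (SE, FDR 0.00404, edgeR) and −2.31 (FDR 0.014, edgeR) without Control replicate 1, which had the highest value. Vstm2l (Entrez gene 277432, chromosome 2, bases 157914653 to 157944719), which encodes a protein with an immunoglobulin domain, was at 44.6, 88.8 and 86.1 CPM in Control replicates 1 to 3, 3.41, 2.93 and 3.86 in HFD and 36.05, 27.5 and 59.8 in HFD+Mino. Its HFD+Mino replicate 3 lay above Control replicate 1, so the groups overlapped by that pair. For Vstm2l the average was −2.63 ± 0.28 (SE, FDR 0.00307, edgeR), made up of −4.43 in HFD and −0.83 in HFD+Mino, and it was −2.89 (FDR 0.0028, edgeR) without Control replicate 1. Snn, the gene of the small membrane protein stannin and the last of the 4, fell by less. It was at 75.2, 65.2 and 72.2 CPM in Control replicates 1 to 3, 13.2, 16.6 and 15.7 in HFD and 43.6, 43.3 and 50.1 in HFD+Mino, with no overlap between the groups. Its average log2 fold change was −1.43 ± 0.16 (SE, FDR 0.00382, edgeR), and −1.38 (FDR 0.0202, edgeR) without Control replicate 1. Snn shares 95 nt of exon with Litaf and 75 nt with Txndc11 on the opposite strand, and counting by strand is not stated.

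**Figure D5:**
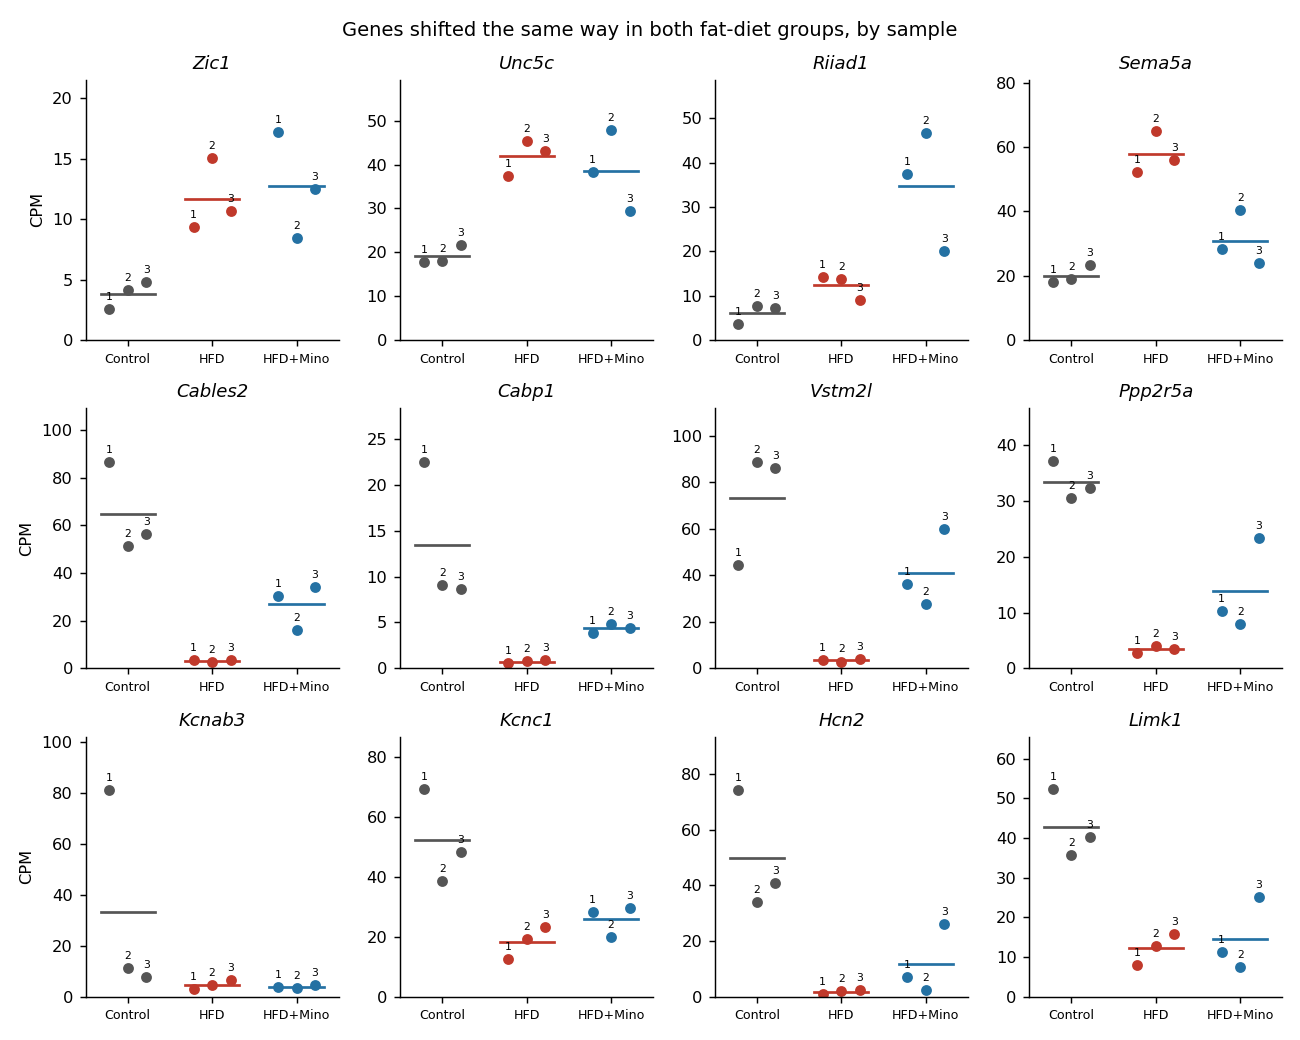
CPM of 12 genes shifted the same way, 4 rises above and 8 falls below, in each sample, with the replicate number beside each point and a line at the group mean. In Cables2 the 3 HFD samples lie at or below 3.66 CPM and the HFD+Mino samples between 16.05 and 34.2 CPM, both below Control, and in Kcnab3 Control replicate 1 (81.02 CPM) stands above all other samples.

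The 11 genes found in 8 of the 9 fits, which were chosen after their values were seen, were 10 falls and Rn45s, and each was lost without Control replicate 2. The falls were Ank (pyrophosphate transport), Clec2l (a C-type lectin), Dpy19l1 (a mannosyltransferase family member), Fbxo45 (part of a synaptic ubiquitin ligase), Klf2 (a zinc finger transcription factor), Ppp2r5a (a regulatory subunit of the phosphatase PP2A), Tmed7 (vesicle cargo transport), Tmeff1 (a transmembrane protein with EGF-like domains), Tmem65 (a mitochondrial membrane protein) and Upp2 (uridine phosphorylase). The average was −1.29 (FDR 0.0429, edgeR) in Ank, −1.78 (FDR 0.0429, edgeR) in Clec2l, −1.72 (FDR 0.0362, edgeR) in Tmed7, −1.68 (FDR 0.027, edgeR) in Tmeff1 and −1.37 (FDR 0.048, edgeR) in Tmem65 without Control replicate 1. Ppp2r5a was at 37.1, 30.5 and 32.3 CPM in Control replicates 1 to 3, 2.76, 3.97 and 3.51 in HFD and 10.2, 8.02 and 23.3 in HFD+Mino. All fat-diet samples lay below Control, and HFD+Mino replicate 3 lay nearest to it. On average Ppp2r5a was −2.27 ± 0.30 (SE, FDR 0.00688, edgeR), with −3.28 in HFD and −1.26 in HFD+Mino, and it was −2.19 (FDR 0.027, edgeR) and −2.32 (FDR 0.0522, edgeR) without Control replicates 1 and 2. Dpy19l1 was at 162, 99.7 and 95.6 CPM in Control replicates 1 to 3, 22.1, 18.4 and 20.5 in HFD and 31.4, 46.2 and 78.5 in HFD+Mino. Here too the fat-diet and Control samples did not overlap, and the average was −1.87 ± 0.27 (SE, FDR 0.00923, edgeR), or −1.59 (FDR 0.0429, edgeR) without Control replicate 1. Upp2 had a mean of 18.3 ± 1.15 CPM for Control, against 2.51 ± 0.261 for HFD and 9.52 ± 3.07 for HFD+Mino (n = 3 per group, SD). Fbxo45 had a mean of 65.1 ± 7.22 CPM for Control, against 9.64 ± 0.469 for HFD and 36.3 ± 15.2 for HFD+Mino (n = 3 per group, SD). No sample of either gene overlapped between the fat-diet and Control groups, and their averages were −1.90 (FDR 0.0056) and −1.80 (FDR 0.0056, edgeR), or −1.91 (FDR 0.0218, edgeR) and −1.88 (FDR 0.0181, edgeR) without Control replicate 1.

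Genes for ion channels were among the falls, and Kcnab3 and Kcnc1 did not pass the test of a difference between HFD and HFD+Mino. Kcnab3 (chromosome 11, bases 69326258 to 69333041) encodes an accessory subunit of voltage-gated potassium channels. It was at 81.02, 11.2 and 7.60 CPM in Control replicates 1 to 3, 3.01, 4.73 and 6.65 in HFD and 3.80, 3.34 and 4.45 in HFD+Mino. All 6 fat-diet samples lay below Control, but Control replicate 1 was far above the other two Control samples. The log2 fold change was −2.79 in HFD and −3.10 in HFD+Mino, an average of −2.94 ± 0.60 (SE, FDR 0.0422, edgeR), and −1.12 (FDR 0.244, edgeR) without Control replicate 1. HFD+Mino differed from HFD by −0.32 (95% interval −1.91 to 1.28), an interval that leaves room for a more than 2-fold difference either way.

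Kcnc1 encodes a potassium channel that lets neurons fire at high rates. It was at 69.5, 38.7 and 48.4 CPM in Control replicates 1 to 3, 12.6, 19.2 and 23.2 in HFD and 28.4, 19.8 and 29.7 in HFD+Mino. All fat-diet samples lay below Control, and Control replicate 1 was the highest sample. The log2 fold change was −1.51 in HFD and −1.01 in HFD+Mino, or −1.26 ± 0.25 on average (SE, FDR 0.0398, edgeR) and −1.0 (FDR 0.178, edgeR) without Control replicate 1. HFD+Mino differed from HFD by 0.50 (95% interval −0.16 to 1.16). Of 22 tested potassium channel genes 0 were called higher and 2 lower (edgeR), or 9.09%, where 1.15% of all tested genes were called. Their median log2 fold change was 0.06, and −0.12 with a trend on gene length removed, against 0.02 for all genes, and without Control replicate 1 the median was −0.06 and 0 of the 22 were called by edgeR.

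Hcn2 encodes a channel of the hyperpolarization-activated current, which sets resting potential and rhythm. It was at 74.2, 34.2 and 40.98 CPM in Control replicates 1 to 3, 1.05, 2.09 and 2.29 in HFD and 6.98, 2.34 and 26.1 in HFD+Mino. No fat-diet sample reached the Control range, and HFD+Mino replicate 3 came closest. The average was −3.42 ± 0.56 on the log2 scale (SE, FDR 0.0169, edgeR), made up of −4.76 in HFD and −2.07 in HFD+Mino, and −3.01 (FDR 0.0528, edgeR) without Control replicate 1. In Kcnab3, Kcnc1 and Hcn2 the highest sample was Control replicate 1, the library with the most myelin RNA and the least Avp, and the part of that library's content in the falls was not tested.

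The next falls by the naming rule act in signaling and in the cytoskeleton, which no list covered. Pde8a encodes a phosphodiesterase that breaks down cyclic AMP. It was at 30.2, 10.1 and 8.18 CPM in Control replicates 1 to 3, 2.36, 3.25 and 3.36 in HFD and 3.12, 3.01 and 6.39 in HFD+Mino, with HFD and HFD+Mino log2 fold changes of −2.43 and −1.95 (average FDR 0.0288, edgeR). Its fat-diet samples lay below Control, and the value was −1.37 (FDR 0.151, edgeR) without Control replicate 1. Limk1 encodes a kinase that acts on the actin regulator cofilin. It was at 52.3, 35.7 and 40.3 CPM in Control replicates 1 to 3, 8.08, 12.8 and 15.8 in HFD and 11.3, 7.39 and 25.2 in HFD+Mino. No sample overlapped, and its average of −1.67 ± 0.34 (SE, FDR 0.045, edgeR) became −1.50 (FDR 0.151, edgeR) without Control replicate 1. Nckap1, a subunit of the actin-regulating WAVE complex, was at 233, 261 and 319 CPM in Control replicates 1 to 3, 78.4, 89.1 and 112 in HFD and 70.8, 112 and 199 in HFD+Mino. Here the highest Control value was that of replicate 3, and the average of −1.32 (FDR 0.0498, edgeR) became −1.42 (FDR 0.0878, edgeR) without Control replicate 1. The difference of HFD+Mino from HFD was 0.48 (95% interval −0.63 to 1.59) in Pde8a, 0.26 (95% interval −0.65 to 1.17) in Limk1 and 0.45 (95% interval −0.28 to 1.18) in Nckap1.

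Fndc5 encodes the membrane precursor of the hormone irisin. It was at 242, 82.1 and 58.2 CPM in Control replicates 1 to 3, 6.78, 13.02 and 20.6 in HFD and 52.96, 24.9 and 44.1 in HFD+Mino. Control replicate 1 was the highest sample, and the average of −2.44 ± 0.44 (SE, FDR 0.0254, edgeR) was −1.58 (FDR 0.106, edgeR) without it. Tada2b, an adaptor of histone acetyltransferase complexes, was at 19.97, 21.7 and 26.9 CPM in Control replicates 1 to 3, 4.22, 5.28 and 4.73 in HFD and 6.16, 4.75 and 14.8 in HFD+Mino. Its Control samples were close to each other, and of the 26 genes with no called difference between HFD and HFD+Mino it was among the 3 that kept the shift without Control replicate 1, at −1.93 (FDR 0.048, edgeR), while it was −1.87 (FDR 0.112, edgeR) without Control replicate 2. The difference between HFD+Mino and HFD in Tada2b was 0.85 (95% interval −0.00 to 1.71). Of 28 KLHL and KCTD adaptor genes 2 were called lower (7.14%, against 1.08% of all tested genes) and 0 higher (edgeR). The median of the 28 was −0.03, with 0.10 in HFD and −0.39 in HFD+Mino. Cul3, 1 of these 2 and the scaffold of a family of ubiquitin ligases, was at 82.1, 99.97 and 103 CPM in Control replicates 1 to 3, 20.3, 23.96 and 26.6 in HFD and 20.8, 48.3 and 73.5 in HFD+Mino. It lay below Control in all 6 fat-diet samples, with an average of −1.51 (FDR 0.0402, edgeR) and −1.60 (FDR 0.0731, edgeR) without Control replicate 1. Kcnab3 shares 147 nt of exon with Kcnab3os and Tada2b 411 nt with Grpel1, each on the opposite strand, so their reads may belong to either gene.

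Rises were few. Zic1 (Entrez gene 22771, chromosome 9, bases 91358058 to 91365768) encodes a zinc finger transcription factor of the developing brain. It was at 2.53, 4.09 and 4.80 CPM in Control replicates 1 to 3, 9.34, 15.1 and 10.7 in HFD and 17.2, 8.47 and 12.5 in HFD+Mino. All fat-diet samples lay above all Control samples, and the HFD and HFD+Mino samples overlapped each other. On average it rose by 1.68 ± 0.33 on the log2 scale (SE, FDR 0.0372, edgeR), made up of 1.62 in HFD and 1.74 in HFD+Mino. The difference of HFD+Mino from HFD was 0.12 (95% interval −0.65 to 0.89). Without Control replicate 1, which had the lowest value, the average of Zic1 was 1.45 (FDR 0.135, edgeR).

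Unc5c (Entrez gene 22253, chromosome 3, bases 141465564 to 141834924) encodes a receptor for the axon guidance protein netrin. It was at 17.9, 17.98 and 21.6 CPM in Control replicates 1 to 3, 37.5, 45.3 and 43.2 in HFD and 38.3, 47.96 and 29.3 in HFD+Mino. The 3 Control samples lay close together and below every fat-diet sample. The average was 1.07 ± 0.21 on the log2 scale (SE, FDR 0.0369, edgeR) and 1.02 (FDR 0.151, edgeR) without Control replicate 1, so that the size stayed and the call was lost. HFD+Mino differed from HFD by −0.13 (95% interval −0.63 to 0.38). Sema5a, another axon guidance gene, was at 17.9, 18.8 and 23.3 CPM in Control replicates 1 to 3, 52.2, 65.2 and 55.96 in HFD and 28.4, 40.5 and 23.96 in HFD+Mino. Its fat-diet samples lay above Control, but HFD+Mino replicate 3 did so by less than 1 CPM, and the difference of HFD+Mino from HFD was −0.90 (95% interval −1.44 to −0.36) with an FDR of 0.023 (edgeR). Its average of 1.08 (FDR 0.045, edgeR) was 1.0 (FDR 0.174, edgeR) without Control replicate 1.

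Riiad1 was at 3.50, 7.65 and 7.18 CPM in Control replicates 1 to 3, 14.2, 13.8 and 8.94 in HFD and 37.3, 46.7 and 19.97 in HFD+Mino. It rose more in HFD+Mino than in HFD, by 1.49 (95% interval 0.65 to 2.34) with an FDR of 0.0192 (edgeR), and its average of 1.76 (FDR 0.0429, edgeR) was 1.47 (FDR 0.132, edgeR) without Control replicate 1. Lsm12, which encodes an RNA-binding protein, was at 10.9, 9.09 and 8.15 CPM in Control replicates 1 to 3, 25.8, 25.4 and 26.6 in HFD and 16.6, 18.7 and 12.6 in HFD+Mino, an average of 1.11 (FDR 0.0338, edgeR), and 1.23 (FDR 0.0684, edgeR) without Control replicate 1. The fat-diet and Control samples of both genes did not overlap. Riiad1 shares 74 nt of exon with Celf3, Zic1 60 nt with Zic4 and Unc5c 118 nt with Gm15688, on the opposite strand. The sixth rise without overlap, 1500015O10Rik, was low, with a mean of 1.03 ± 0.506 CPM for Control, against 3.72 ± 1.48 for HFD and 7.23 ± 2.86 for HFD+Mino (n = 3 per group, SD). Its average log2 fold change was 2.32 (FDR 0.0445, edgeR), and 1.98 (FDR 0.127, edgeR) without Control replicate 1.

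The other rises named from lists concern ribosomal and messenger RNA. Rn45s, the precursor of ribosomal RNA, was at 461, 356 and 239 CPM in Control replicates 1 to 3, 3829, 3567 and 3477 in HFD and 1346, 755 and 426 in HFD+Mino. HFD stood far above the other groups, and HFD+Mino replicate 3 fell within the Control range. On average Rn45s was 2.31 ± 0.36 (SE, FDR 0.0129, edgeR), 3.36 in HFD and 1.26 in HFD+Mino, and 2.55 (FDR 0.027, edgeR) without Control replicate 1. Rn18s, part of the same precursor, was at 18.6, 11.9 and 5.77 CPM in Control replicates 1 to 3, 92.9, 92.98 and 92.1 in HFD and 59.7, 29.9 and 15.7 in HFD+Mino, an average of 2.24 (FDR 0.0422, edgeR) and 2.68 (FDR 0.048, edgeR) without Control replicate 1. The genome holds many copies of this precursor, so its reads have no single position. Ddx6, an RNA helicase that represses and decays messenger RNA, was at 16.5, 21.6 and 18.8 CPM in Control replicates 1 to 3, 98.4, 94.8 and 96.6 in HFD and 33.9, 34.2 and 18.8 in HFD+Mino. Its HFD+Mino replicate 3 lay at the Control level, and its average of 1.48 (FDR 0.0129, edgeR) was 1.38 (FDR 0.0611, edgeR) without Control replicate 1. Of 11 tested ribosomal precursor and nuclear noncoding RNAs 2 (18.2%) were called higher and 0 lower (edgeR), and of 31 genes of mRNA decay and export 1 was called higher and 1 lower (6.45%), against 1.15% of all tested genes.

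Genes of glia, neuropeptides and antioxidant defence were also among the falls. Hcrt had the largest fall by fold, −8.02 ± 1.40 on the log2 scale (SE, FDR 0.0211, edgeR), but its Control values ran from 1.59 to 812.5 CPM and overlapped those of HFD+Mino. It was −8.48 (FDR 0.027, edgeR) without Control replicate 1 and −5.05 (FDR 0.115, edgeR) without Control replicate 2. Pmch, the gene of melanin-concentrating hormone in the same region and chosen after its values were seen, was at 391, 2559.9 and 20.99 CPM in Control replicates 1 to 3, 0.803, 1.16 and 22.5 in HFD and 34.4, 51.2 and 1.23 in HFD+Mino and not called by edgeR (FDR 0.0676, and −6.38 (FDR 0.085, edgeR) without Control replicate 1), while its FDR was 0.00363 by DESeq2 and 0.0148 with the replicate block. Parpbp, also chosen after its values were seen, shares 435 nt of exon with Pmch on the opposite strand. It was at 1.99, 14.6 and 0.324 CPM in Control replicates 1 to 3. The fat-diet samples lay at 0.853, 0.174 and 0.199 CPM in HFD and 0.240, 0.149 and 0.082 in HFD+Mino. Parpbp was called at −4.51 (FDR 0.046, edgeR) and −4.92 (FDR 0.048, edgeR) without Control replicate 1. Without Control replicate 2, its highest sample, it was −2.21 (FDR 0.444, edgeR). Of 11 tested neuropeptide genes of neighbouring nuclei 1 was called lower (9.09%, against 1.08% of all tested genes) and 0 higher (edgeR). The median of the 11 was 0.14.

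Of 12 genes of oligodendrocyte precursors, the cells from which myelin-forming cells arise, 2 were called lower (16.7%, against 1.08% of all tested genes) and 0 higher (edgeR). Olig2, their transcription factor, was at 40.7, 22.1 and 18.5 CPM in Control replicates 1 to 3, 1.66, 3.68 and 2.86 in HFD and 9.86, 7.06 and 20.95 in HFD+Mino. C1ql1, a secreted protein of these cells and of some neurons, was at 25.2, 17.4 and 14.7 CPM in Control replicates 1 to 3, 1.004, 0.812 and 0.473 in HFD and 10.2, 5.27 and 18.2 in HFD+Mino. In both genes HFD+Mino replicate 3 reached the Control range and HFD stayed below it. Their averages were −2.20 ± 0.38 (FDR 0.0186) and −2.72 ± 0.37 (SE, FDR 0.00738, edgeR), and without Control replicate 1 they were −1.78 (FDR 0.0775, edgeR) and −2.47 (FDR 0.027, edgeR). The median of the 12 genes was −0.26, with 0.13 in HFD and −0.69 in HFD+Mino. Without Control replicate 1 these medians were −0.02, 0.42 and −0.53, so the list as a whole was not lower in HFD.

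Gclc and Gclm encode the catalytic and modifier subunits of the enzyme that starts glutathione synthesis, and they were the 2 called among 27 antioxidant genes, both lower (7.41%, against 1.08% of all tested genes). Gclc was at 99.03, 92.9 and 104 CPM in Control replicates 1 to 3, 14.96, 16.5 and 17.7 in HFD and 49.9, 40.05 and 104 in HFD+Mino. HFD lay below all other samples, and HFD+Mino replicate 3 reached the top of the Control range. On average Gclc was −1.60 ± 0.26 from Control on the log2 scale (SE, FDR 0.0164, edgeR), and −1.60 (FDR 0.048, edgeR) without Control replicate 1. Gclm, chosen after its values were seen, was at 45.01, 32.9 and 31.4 CPM in Control replicates 1 to 3, 4.32, 7.63 and 6.32 in HFD and 21.7, 24.4 and 27.9 in HFD+Mino with no overlap between fat-diet and Control samples, and its average was −1.57 (FDR 0.00885, edgeR) and −1.39 (FDR 0.0419, edgeR) without Control replicate 1, but its HFD+Mino log2 fold change of −0.56 was under 1.5-fold. The median of the 27 genes was 0.01.

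Klf2 was the gene called by edgeR among 20 immediate early genes (5%, against 1.15% of all tested genes), which neurons switch on after stimulation. It was at 9.12, 12.7 and 12.95 CPM in Control replicates 1 to 3, 0.452, 1.16 and 0.772 in HFD and 4.55, 4.38 and 9.89 in HFD+Mino. HFD lay below all other samples, and the average log2 fold change was −2.36 ± 0.35 (SE, FDR 0.00959, edgeR), with −2.51 (FDR 0.0237, edgeR) without Control replicate 1. The list median was −0.93, with −0.33 in HFD and −0.87 in HFD+Mino. Without Control replicate 1 these medians were −1.04, −0.62 and −1.03. Npas4, Dusp1 and Fos, chosen after their values were seen, were not called by edgeR with all samples. Npas4 was at 2.43, 3.95 and 5.92 CPM in Control replicates 1 to 3, 1.61, 1.04 and 0.473 in HFD and 0.890, 0.409 and 1.42 in HFD+Mino. Dusp1 was at 51.7, 65.8 and 74.9 CPM in Control replicates 1 to 3, 29.2, 36.05 and 39.6 in HFD and 39.1, 27.2 and 45.6 in HFD+Mino. In both the fat-diet samples lay below Control. Their average log2 fold changes were −2.08 (FDR 0.074) and −0.83 (FDR 0.1, edgeR), and −2.35 (FDR 0.085, edgeR) and −0.96 (FDR 0.139, edgeR) without Control replicate 1. With the replicate block both were called, at FDRs of 0.0339 and 0.0279 (edgeR), and by DESeq2 they were called at 0.00444 and 0.0178. Fos was at 32.5, 111 and 168 CPM in Control replicates 1 to 3, 26.2, 42.7 and 54.97 in HFD and 26.8, 12.5 and 43.5 in HFD+Mino, with Control replicate 1 among the fat-diet values. Fos had an average of −1.62 (FDR 0.142, edgeR) and −2.05 (FDR 0.048, edgeR) without Control replicate 1, while its FDR was 0.0652 with the replicate block and 0.0172 by DESeq2. DESeq2 called 5 of the 20 genes lower and 0 higher, and the replicate block 4 lower and 0 higher. Of all 17344 tested genes, they called 535 and 495 lower.

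Adra2a, Adra2c, Adcy2 and Prkaca act in cyclic AMP or adrenergic signaling. They were picked from the falls after their values were seen, so they do not describe that pathway as a whole. Adra2a, an inhibitory receptor for noradrenaline, was at 12.2, 21.7 and 16.3 CPM in Control replicates 1 to 3, 3.06, 4.12 and 3.58 in HFD and 8.08, 6.76 and 13.6 in HFD+Mino. HFD lay below all other samples, and HFD+Mino replicate 3 overlapped Control. Adra2c, a second such receptor, had a mean of 10.7 ± 2.29 CPM for Control, against 1.42 ± 0.510 for HFD and 5.57 ± 2.98 for HFD+Mino (n = 3 per group, SD). Adcy2, an enzyme that makes cyclic AMP, had a mean of 115 ± 10.98 CPM for Control, against 34.1 ± 7.57 for HFD and 68.8 ± 17.9 for HFD+Mino (n = 3 per group, SD). Prkaca, a catalytic subunit of the kinase that cyclic AMP activates, was at 146, 163 and 196 CPM in Control replicates 1 to 3, 8.38, 12.9 and 11.3 in HFD and 51.5, 27.4 and 163 in HFD+Mino. The average log2 fold changes were −1.52 (FDR 0.0274), −1.92 (FDR 0.0264), −1.25 (FDR 0.0175) and −2.51 (FDR 0.0175) in the order named (edgeR), and HFD+Mino lay above HFD in each. Against Control, HFD+Mino alone did not pass the test in any of the 4 genes, with FDRs of 0.2, 0.228, 0.148 and 0.252 (edgeR). Without Control replicate 1, Adra2c was −1.92 (FDR 0.0684, edgeR), and the other 3 kept the call. All 4 genes lost the call without Control replicate 2, with FDRs of 0.184, 0.0971, 0.115 and 0.0846 in the same order (edgeR).

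Some ubiquitin ligases and kinases were likewise picked from the falls after their values were seen, and do not describe those gene classes. Siah2 and Cop1 encode ligases that mark proteins for breakdown, as Fbxo45 and Cul3 do. Siah2 was at 27.9, 22.5 and 23.99 CPM in Control replicates 1 to 3, 1.91, 2.81 and 2.71 in HFD and 13.5, 12.8 and 21.7 in HFD+Mino, and Cop1 at 39.99, 32.6 and 36.5 CPM in Control replicates 1 to 3, 5.17, 5.60 and 6.37 in HFD and 13.1, 13.2 and 32.1 in HFD+Mino. No fat-diet sample of either gene reached Control, and HFD was lower than HFD+Mino. Their averages were −1.97 (FDR 0.0043) and −1.78 (FDR 0.0129, edgeR), or −1.88 (FDR 0.0193, edgeR) and −1.71 (FDR 0.048, edgeR) without Control replicate 1. Siah2 then no longer passed the fold in HFD+Mino.

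Mark1, Mark3 and Sik3 encode kinases related to the energy sensor AMPK, and Cab39 encodes a scaffold of the kinase complex that activates them. Mark3 was at 75.5, 66.9 and 83.5 CPM in Control replicates 1 to 3, 8.93, 11.1 and 9.91 in HFD and 37.8, 35.8 and 71.8 in HFD+Mino. HFD lay below all other samples, and HFD+Mino overlapped Control. Mark1 had a mean of 52.9 ± 7.79 CPM for Control, against 15.3 ± 1.10 for HFD and 27.2 ± 13.03 for HFD+Mino (n = 3 per group, SD), and Cab39 of 205 ± 16.6 CPM for Control, against 53.99 ± 5.90 for HFD and 121 ± 34.1 for HFD+Mino (n = 3 per group, SD), and neither overlapped between fat-diet and Control samples. Sik3 had a mean of 80.6 ± 11.9 CPM for Control, against 17.9 ± 2.74 for HFD and 49.3 ± 25.8 for HFD+Mino (n = 3 per group, SD). The averages were −1.77 (FDR 0.00588) for Mark3, −1.37 (FDR 0.0279) for Mark1, −1.34 (FDR 0.00924) for Cab39 and −1.44 (FDR 0.0279) for Sik3 (edgeR). Without Control replicate 1 Mark3 was −1.77 (FDR 0.0237, edgeR) and Cab39 −1.35 (FDR 0.0384, edgeR), while Mark1 was −1.45 (FDR 0.0608, edgeR) and Sik3 −1.48 (FDR 0.0724, edgeR). Of 29 genes listed for mTORC1 and AMPK themselves, 0 were called by edgeR, 1 by DESeq2 and 2 with the replicate block. These fits called 1.15%, 4.98% and 4.81% of all tested genes. At an unadjusted p under 0.05, 1 of the 29 was higher and 3 were lower (edgeR), where 1111 and 1288 of all 17344 tested genes were. The median of the 29 was 0.06, or −0.04 without HFD+Mino replicate 2.

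Gna12, a G protein subunit, and Lgi2, a secreted synaptic protein, were also chosen after their values were seen. Gna12 had a mean of 78.01 ± 23.5 CPM for Control, against 5.62 ± 0.611 for HFD and 23.8 ± 28.1 for HFD+Mino (n = 3 per group, SD), with an average of −2.75 (FDR 0.0353, edgeR) and −2.51 (FDR 0.108, edgeR) without Control replicate 1. Lgi2 had a mean of 15.4 ± 5.28 CPM for Control, against 2.06 ± 0.565 for HFD and 9.60 ± 0.776 for HFD+Mino (n = 3 per group, SD), with an average of −1.79 (FDR 0.01, edgeR) and −1.49 (FDR 0.048, edgeR) without that sample, where it no longer passed the fold in HFD+Mino. Gna12 shares 456 nt of exon with Amz1 on the opposite strand.

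The falls with the greatest difference between the fat-diet groups were Dapk3, C1ql1 and Vstm2l. Dapk3, a death-associated protein kinase, was at 50.4, 47.9 and 59.3 CPM in Control replicates 1 to 3, 1.76, 1.80 and 1.82 in HFD and 25.8, 14.7 and 60.3 in HFD+Mino. HFD was far below Control, and HFD+Mino replicate 3 was above it. Its log2 fold change was −4.87 in HFD and −0.64 in HFD+Mino, and the average of −2.76 (FDR 0.00547, edgeR) was −2.79 (FDR 0.0151, edgeR) without Control replicate 1. HFD+Mino lay above HFD by 4.23 (95% interval 3.19 to 5.26) with an FDR of 0.000927 (edgeR). Mme, which encodes the peptidase neprilysin, went the other way. It was at 9.09, 6.72 and 6.54 CPM in Control replicates 1 to 3, 2.76, 3.13 and 6.97 in HFD and 1.03, 0.966 and 1.58 in HFD+Mino, with its 3 lowest values in HFD+Mino and HFD replicate 3 within the Control range. HFD+Mino differed from HFD by −1.84 (95% interval −2.80 to −0.88) with an FDR of 0.015 (edgeR). The average of Mme was −1.71 (FDR 0.0428, edgeR) and −1.55 (FDR 0.151, edgeR) without Control replicate 1.

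Another 90 genes, 3 higher and 87 lower, were called in the average without reaching 1.5-fold in both groups. All 90 passed the fold in HFD and 0 in HFD+Mino, and in 10 HFD+Mino lay on the other side of Control. Zmynd19 was at 24.4, 24.03 and 21.3 CPM in Control replicates 1 to 3, 0.853, 0.551 and 0.772 in HFD and 20.2, 16.6 and 30.6 in HFD+Mino. Cebpb, a transcription factor of inflammation and fat metabolism, was at 10.9, 11.5 and 19.6 CPM in Control replicates 1 to 3, 0.301, 0.319 and 0.448 in HFD and 12.1, 6.43 and 18.7 in HFD+Mino. In both genes the HFD+Mino samples overlapped Control and the HFD samples lay far below. Tmem243 was at 31.4, 17.8 and 9.63 CPM in Control replicates 1 to 3, 0.602, 0.667 and 0.772 in HFD and 14.4, 13.6 and 15.8 in HFD+Mino. The 3 genes had HFD log2 fold changes of −5.01, −5.26 and −4.83, and HFD+Mino log2 fold changes of −0.05, −0.17 and −0.42. Their averages were −2.50 (FDR 0.00497, edgeR), −2.87 (FDR 0.014, edgeR) and −2.11 (FDR 0.014, edgeR) without Control replicate 1. Entrez gene 100628626, Irgq and Psd3 were the 3 that were higher, with averages of 1.69, 1.03 and 0.79, or 1.87 (FDR 0.048, edgeR), 1.01 (FDR 0.126, edgeR) and 0.83 (FDR 0.149, edgeR) without Control replicate 1. Psd3 was at 50.97, 45.1 and 47.6 CPM in Control replicates 1 to 3, 96.1, 96.7 and 103 in HFD and 67.4, 77.2 and 63.7 in HFD+Mino, with all fat-diet samples above Control and a HFD+Mino log2 fold change of 0.54. Cebpb shares 312 nt of exon with Tmem189 and Tmem243 404 nt with Dmtf1 on the opposite strand.

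Most gene lists held no called gene. Of 39 lists with 840 different tested genes, 10 held a called gene (edgeR). Over all lists 3 genes were called higher and 13 lower, which is 1.9% where 1.15% of all tested genes were called, with 3 and 8 shifted the same way, where 0.634% of all genes were. DESeq2 called 8.1% of the list genes and 4.98% of all genes, and the replicate block 10.4% and 4.81%. The median log2 fold change of the 29 lists with 0 called genes (edgeR) ran from −1.68 to 0.89, and the mature oligodendrocyte list lay at its low end and the choroid plexus and cytosolic ribosomal protein lists at its high end. Of 16 mature oligodendrocyte genes 15 were at least 1.5-fold lower in both groups, with medians of −1.48 in HFD and −1.71 in HFD+Mino, but 0 passed the test by edgeR. At an unadjusted p under 0.05 14 were lower and 0 higher (edgeR), where 1288 of all 17344 tested genes were lower. DESeq2 called 4 of the 16 lower, and the replicate block 1, where they called 535 and 495 of all 17344 tested genes lower. The share of all tested genes at least 1.5-fold lower in both groups was not counted. Without Control replicate 1 the median was −0.27 and 1 of 16 was at least 1.5-fold lower in both.

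Cytosolic ribosomal protein genes had a median of 0.89, 0.50 in HFD and 1.30 in HFD+Mino, and 0 of 37 were called by edgeR. At an unadjusted p under 0.05 34 were higher and 0 lower (edgeR), where 1111 of all 17344 tested genes were higher. DESeq2 called 11 higher, and the replicate block 34 higher (edgeR), with 0 lower by either. Of all tested genes, they called 329 and 339 higher. Their sum was between 2116 and 3753 CPM in Control, 4024 and 4544 in HFD and 3508 and 9656 in HFD+Mino. In 6 of the 37, Rps2, Rps19, Rps28, Rpl10, Rpl27 and Rplp0, all fat-diet samples lay above Control, as in 1.85% of all tested genes. Rps2 was at 33.6, 32.7 and 24.3 CPM in Control replicates 1 to 3, 58.5, 69.5 and 59.7 in HFD and 84.9, 68.9 and 36.004 in HFD+Mino, an average of 1.06 (FDR 0.0975, edgeR) and 1.14 (FDR 0.21, edgeR) without Control replicate 1, while its FDR was 0.00711 by DESeq2 and 0.0103 with the replicate block. Without Control replicate 1 the list median was 1.10, and 23 of the 37 were at least 1.5-fold higher in both groups where 13 were with it. The share of all tested genes that reached this fold was not counted.

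Microglia, the cells that minocycline is given to act on, showed 0 of 24 genes called by edgeR and 0 by DESeq2, and the replicate block called 1 higher. At an unadjusted p under 0.05 1 was higher and 1 lower (edgeR), and the median was 0.10, with −0.16 in HFD and 0.36 in HFD+Mino. Without Control replicate 1 these medians were 0.38, 0.17 and 0.77. At that p 4 were then higher and 0 lower, where 772 and 871 of 17821 genes were (edgeR). With all samples, 1111 of all 17344 tested genes were higher and 1288 lower at that p (edgeR). DESeq2 called 329 of them higher and 535 lower, and the replicate block 339 and 495. The 24 genes summed to between 4728 and 6479 CPM in Control, 4602 and 5435 in HFD and 5885 and 8150 in HFD+Mino. Among 22 tested genes of NF-kB and cytokines 0 were called by edgeR (2 lower at an unadjusted p under 0.05), with a median of −0.00, and 1 was called lower by DESeq2 and by the replicate block. PVN neuropeptides had a median of 0.79 over 16 genes, or 0.50 without Control replicate 1, with 0 called by edgeR (4 higher and 1 lower at an unadjusted p under 0.05) and 1 higher by DESeq2. Feeding receptors had a median of 0.16 over 23 genes, with 0 called by edgeR (2 higher and 2 lower at an unadjusted p under 0.05) and 1 higher and 1 lower by DESeq2. Crhr1, the receptor of corticotropin-releasing hormone and chosen after its values were seen, lay below Control in all fat-diet samples, at an average of −1.28 (FDR 0.118, edgeR) and −0.80 (FDR 0.499, edgeR) without Control replicate 1. Its FDR was 0.0196 by DESeq2.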

How the data were processed

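RNA from PVN punches of 9 mice was sequenced, with 3 mice per group. Per the labels and the paper, HISAT2 placed the reads on mm10, featureCounts counted them per gene, and the authors deposited the raw count of each gene. The table holds 27179 genes, 2154 of them without a count and 958 without a symbol, and 0 columns were left unused. Versions, counting by strand and the treatment of reads with several positions are not given in the sources used here. Total counts ran from 17728590 to 42326213. No pair of replicates was alike within sampling noise (chi-square over its degrees of freedom, 21 to 316). Reads carry no molecular identifiers, so precision was taken from the spread between mice.

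The analysis used edgeR 4.0.16 and R 4.3.3 with filterByExpr, TMM and a quasi-likelihood model with 1 mean per group on all 9 samples. The contrast was the mean of HFD and HFD+Mino minus Control, and HFD+Mino against HFD used the same model. P-values were adjusted by Benjamini-Hochberg over 17344 genes. SEs were taken from the test statistic, and intervals are 95%. The rule for naming took, among genes shifted the same way with a mean of at least 5 CPM and no overlap of fat-diet and Control samples, up to 12 rises and 12 falls by the smaller of the groups' changes. It added up to 4 list members shifted the same way per list, the 3 highest and lowest genes called but not shifted the same way, the 3 with the greatest difference between HFD and HFD+Mino each way, and marker genes. The members and gene lists were chosen with earlier results of these data known, and genes outside the rule were chosen after their values were seen. A few genes are not reported here. Positions are from RefSeq on GRCm38.p6 and exons from GENCODE M21, with overlaps taken over all transcripts. The code was tested on simulated data.

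The alternatives were DESeq2 1.42.0, RLE size factors, other filters and thresholds, a 2-group model, the ribosomal precursor and mitochondrial genome left out, a trend on gene length removed, replicate blocks, and each sample left out. A trend on the GC-richest 100 nt was added after seeing the data. Same-numbered samples of Control and HFD+Mino deviated together weakly (correlations of deviations from the group means 0.121, 0.144 and 0.264). Only the counts show this pairing, as no litter or day is named, and same-numbered samples of HFD did not pair with either group (−0.149 to −0.005). Control replicate 2 and HFD replicate 1, which differ in number, correlated at 0.163.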

Additional observations from a re-analysis of the deposited data

Results flagged for a closer look

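The fat-diet effect differed with the drug in 84 of the 110 genes shifted the same way, by the test of HFD+Mino against HFD (edgeR's quasi-likelihood test, FDR under 0.05), where 27.5% of all tested genes differed. Most of the 110 genes were also called in HFD alone, so their selection favours a high share. The values below are log2 differences of HFD+Mino minus HFD, and the same test picked out each gene. Groups of 3 samples were too small to be tested for single samples that stand apart.

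Among the falls, HFD+Mino lay above HFD by 2.68 in Hcn2, 2.57 in Cabp1, 3.04 in Cables2, 2.01 in Ppp2r5a, 1.36 in Dpy19l1, 2.95 in Klf2, 2.20 in Olig2, 3.90 in C1ql1, 1.98 in Gclc, 4.23 in Dapk3 and 3.59 in Vstm2l. Falls chosen after their values were seen gave 1.59 in Snn, 1.93 in Upp2, 1.91 in Fbxo45, 2.01 in Tmeff1, 0.97 in Ank, 2.17 in Clec2l, 1.56 in Tmed7, 1.18 in Tmem65, 1.40 in Adra2a, 1.95 in Adra2c, 1.01 in Adcy2, 2.89 in Prkaca, 2.08 in Gna12, 2.68 in Siah2, 1.77 in Cop1, 2.28 in Mark3, 1.46 in Sik3, 1.16 in Cab39 and 2.21 in Lgi2. Mme was lower in HFD+Mino, at −1.84.

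Among the rises the difference was 1.49 in Riiad1, −0.70 in Lsm12, −0.90 in Sema5a, −1.40 in Rn18s, −2.10 in Rn45s and −1.74 in Ddx6. Among genes called in the average without reaching the fold in HFD+Mino it was −2.89 in Entrez gene 100628626, −1.74 in Irgq, 5.09 in Cebpb, 4.40 in Tmem243, 4.96 in Zmynd19 and 2.01 in Gclm.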

How the results depend on the processing

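With 3 samples per group the counts moved with the test and with single samples, and none of 71 genes described for the average effect changed direction in 19 other fits, which did not include the 2-group model. These fits reuse the samples from which the genes were chosen, so an unchanged direction is no independent support. The fit at an FDR under 0.01 keeps the log2 fold changes of the main fit and could not change direction. In this paragraph counts are given as higher and lower in the average, then shifted the same way up and down, then those differing between HFD and HFD+Mino, then HFD against Control and HFD+Mino against Control, and counts within 1.5 times are left out. DESeq2 gave 329 and 535, 212 and 303, 175, 2025 and 1376. No filter on low counts gave 49 and 357, 40 and 241, 130, and 54 in HFD+Mino against Control. A mean count of at least 50 gave 22 higher. An FDR under 0.01 gave 0 and 51 (1111 and 1288 at an unadjusted p under 0.05, edgeR), 0 and 24, 21, and 302 in HFD against Control. The trend on gene length gave 25 higher and 18 shifted up, and the trend on the GC-richest 100 nt, added after seeing the data, gave 115 lower, 37 shifted down and 32 differing, with 40 of the 110 genes found again. A 2-group model of 6 against 3 samples gave 0 and 0 (676 and 662 at an unadjusted p under 0.05, edgeR), since the difference between HFD and HFD+Mino then counts as spread. The same sign with no fold threshold in the single groups gave 178 shifted down, and 2-fold in each group 33. The replicate block in Control and HFD+Mino alone gave 339 and 495, 160 and 284, 213, 2661 and 2688, and the block over all 9 samples moved no count by over 1.5 times (15 and 222 in the average). With each sample left out in turn the ranges were 0 to 366 higher, 20 to 659 lower, 0 to 177 shifted up, 9 to 450 shifted down, 9 to 253 differing, 306 to 1473 in HFD against Control, 0 to 3707 in HFD+Mino against Control and 806 to 1640 genes without overlap. The low ends of the first 5 are without Control replicate 2 (713 higher at an unadjusted p under 0.05, edgeR), and the high ends, except for genes without overlap (Control replicate 3), without HFD+Mino replicate 3. The cause of these movements was not tested. Over these genes and fits, 1009 values kept their side of the threshold, 302 lost the call and 36 gained it.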

Other observations

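The genes below were picked with their values known, and edgeR called none of them. Neat1, a long noncoding RNA of the nucleus, was at 82.6, 26.3 and 20.9 CPM in Control replicates 1 to 3, 9.44, 19.7 and 15.3 in HFD and 5.99, 6.65 and 16.4 in HFD+Mino. All fat-diet samples lay below Control, the average log2 fold change was −1.85 (FDR 0.0824, edgeR), and it was −0.98 (FDR 0.434, edgeR) without Control replicate 1. DESeq2 called it, at an FDR of 0.00369.

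Ependymal genes, which mark the ciliated cells that line the ventricle next to the PVN, did not pass edgeR's test. Of 15 ependymal and tanycyte genes 7 were at least 1.5-fold higher and 2 at least 1.5-fold lower in both fat-diet groups. The share of all tested genes that reached this fold was not counted. With 0 called by edgeR (4 higher and 1 lower at an unadjusted p under 0.05), 2 were called higher by DESeq2 and 1 by the replicate block. Of all tested genes, they called 329 and 339 higher. Mia and Dynlrb2 are among 4 members with all fat-diet samples above Control, as in 1.85% of all tested genes. The median log2 fold change was 0.67, and 0.87 without Control replicate 1. Mia was at 0.695, 12.8 and 11.9 CPM in Control replicates 1 to 3, 28.5, 20.2 and 15.4 in HFD and 73.4, 98.8 and 37.6 in HFD+Mino and Dynlrb2 at 1.76, 19.4 and 15.5 CPM in Control replicates 1 to 3, 39.2, 29.3 and 19.96 in HFD and 92.9, 117 and 45.7 in HFD+Mino. In both genes Control replicate 1 was the lowest sample and all fat-diet samples lay above Control, with average log2 fold changes of 2.19 (FDR 0.184) and 2.04 (FDR 0.167, edgeR), or 1.64 (FDR 0.111, edgeR) and 1.52 (FDR 0.149, edgeR) without Control replicate 1. By DESeq2 their FDRs were 0.0764 and 0.00547. The 15 genes summed to between 63.6 and 188 CPM in Control, 215 and 365 in HFD and 399 and 866 in HFD+Mino.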
